A study of Mus musculus with 19 samples.

Results

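Mouse plantaris tendon after 14 days of a growth stimulus was compared with the same tendon after 7 days, in mice labelled Scx+, which keep the tendon transcription factor scleraxis. The plantaris tendon joins a small calf muscle to the foot. The comparison took all 4 Scx+ day 14 libraries and all 4 Scx+ day 7 libraries, 8 of the 19 samples in the study, chosen by genotype and day and not by any measured value. Each library was made from total RNA of the tendon. Per the labels, the mice of both groups had been given tamoxifen, so a tamoxifen effect common to both days does not enter the comparison. The 3 Scx+ control libraries came from mice without tamoxifen and without the stimulus, and their values are given as the unstimulated level only. The labels give no alleles, strain, sex, age or kind of stimulus, and do not say that each library came from its own animal. Every p below therefore measures the spread between samples, which may be technical.

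Tendon is built by fibroblasts, the tenocytes, which assemble type I collagen into fibrils with the help of small leucine-rich proteoglycans. When a tendon grows in an adult animal, cells in and around its sheath divide and lay down new matrix, macrophages and other leukocytes enter, and dividing and inflammatory cells become fewer as the new matrix matures. Day 7 and day 14 are an earlier and a later day of the stimulus used here.

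The deposited value is a scaled signal per gene whose read number is unknown, so no counting interval or detection limit can be given. It summed to 43779840 to 47565081 units per library at day 14 and to 45024225 to 48473473 units at day 7. All signals below are rescaled by medians of ratios, in arbitrary units that do not account for gene length, so they compare libraries and not genes. Tendon markers were present in all 8 libraries. Scx had a signal of 5093, 3747, 5044 and 2096 at day 14, 8044, 5609, 3293 and 2772 at day 7 and 593, 442 and 319 in the control. Tenomodulin (Tnmd), a membrane protein of mature tenocytes, had 62845, 39074, 36344 and 15746 at day 14, 27749, 19029.9, 10065 and 10202 at day 7 and 3052, 1274 and 886 in the control.

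Libraries of the same group differed in the other tissue they held, as the plot of muscle and erythroid shares shows. The 22 genes of a skeletal muscle fibre list took 0.284, 5.20, 2.69 and 8.97% of the signal in day 14 replicates 1 to 4, 0.241, 0.0391, 2.13 and 2.23% in the day 7 replicates and 25.5, 30.6 and 26.5% in the controls. The 17 measured genes of an erythroid list, active in red cells and their precursors, took 0.269, 0.0812, 0.129 and 0.217% at day 14, 1.07, 3.95, 1.87 and 0.890% at day 7 and 0.0813, 0.0658 and 0.0941% in the controls. Muscle shares overlapped between the days, whereas each erythroid share at day 14 was below each at day 7. The controls differed from both days in tamoxifen, stimulus and muscle share. The part of each in the control values below was not tested. In these bulk samples, fewer cells of a type and less RNA per cell cannot be told apart.

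**Figure D1:**
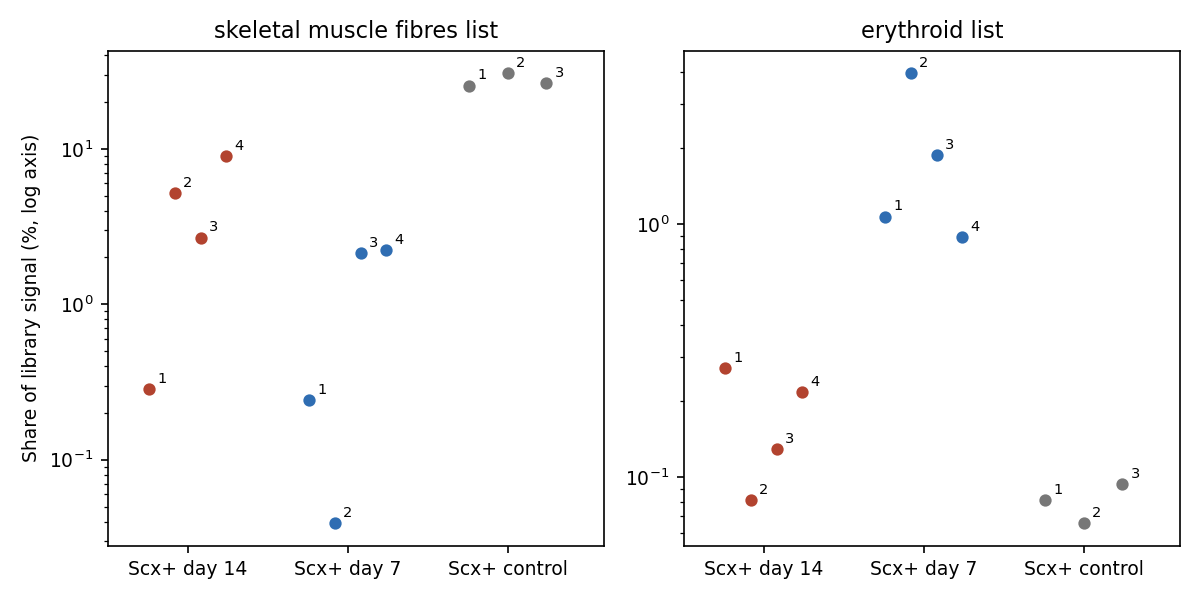
Share of the library signal (percent, log axis) taken by the skeletal muscle fibre list (left) and the erythroid list (right), 1 point per library with its replicate number, in Scx+ day 14, Scx+ day 7 and Scx+ control. The muscle shares of the days overlap and the erythroid shares do not.

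Few single genes separated day 14 from day 7 beyond the spread between libraries. Scara5 and the antisense transcript Gm15674 rose, and Bpgm, Grk3 and Lmnb1 fell. These 5 were 0.0301% of 16625 genes tested (adjusted p under 0.05 in limma with Benjamini-Hochberg adjustment over all genes tested), 0.012% in the upward and 0.018% in the downward direction. At an unadjusted p under 0.05 there were 702 genes with higher values at day 14 (4.22%) and 1055 with lower values (6.35%). Groups did not overlap for 629 genes above (3.78%) and 1016 below (6.11%). The authors' deposited table, made with another model, has 304 genes higher (1.91%) and 492 lower (3.08%) among 15951 at an adjusted p under 0.05, and all 796 had the same sign here. These shares over all genes are the background for the list counts below.

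Scara5 encodes a scavenger receptor that takes up ferritin. Its signal was 3818, 3130.3, 11470.1 and 7755 in the day 14 libraries, 1182, 494, 708 and 663 in the day 7 libraries and 2762, 2493 and 4677 in the controls. Each day 14 library lay above each day 7 library, and the day 7 values lay below the controls. The mean was 6543 ± 3865 at day 14 against 762 ± 295 at day 7 (SD over 4 libraries). The log2 fold change was 2.98 ± 0.42 (SE; limma adjusted p = 0.0156). In the authors' deposited table it is 3.09 (adjusted p = 2.26e-11). The gene lies at chr14:65666403-65764826 on the plus strand (GENCODE M21, GRCm38).

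Gm15674, at chr1:130422824-130437914 on the plus strand, is annotated as an antisense transcript that overlaps Cd55b and Gm15675 on the minus strand and ends 1112 bases from Cd55. Its signal was 668, 659.6, 576 and 538 at day 14, 227, 189, 249 and 312 at day 7 and 548, 497 and 676 in the controls. The log2 fold change was 1.33 ± 0.21 (SE; limma adjusted p = 0.0218). Whether the counting used strand is not given in the sources used here, so its reads cannot be told apart from those of overlapping genes. Cd55 itself, a complement regulator on the cell surface, had 3664, 2871, 3857 and 1998 at day 14, 1335, 1002, 1445 and 1488 at day 7 and 3767, 4467 and 5424 in the controls. Its groups did not overlap either, and its log2 fold change of 1.20 ± 0.21 just missed the threshold (limma adjusted p = 0.0512).

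Bpgm encodes bisphosphoglycerate mutase, which makes the molecule that lowers the oxygen affinity of haemoglobin in red cells. Its signal fell to 1031, 957, 1016 and 1216 at day 14, against 3049, 10206, 5472 and 2257 at day 7, with 5388, 6207 and 6743 in the controls. The day 14 values lay close together and the day 7 values spread widely. The log2 fold change was -2.07 ± 0.31 (SE, n = 4 each; limma adjusted p = 0.0156), and -2.32 in the authors' deposited table (adjusted p = 1.21e-06). Bpgm lies at chr6:34476207-34505613, plus strand.

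Grk3, a kinase that desensitises G protein-coupled receptors, and Lmnb1, which encodes lamin B1 of the nuclear envelope, fell by similar amounts. Grk3 had 328, 349, 150.4 and 299.7 at day 14, 692, 787, 753 and 806 at day 7 and 229.7, 269 and 275 in the controls, a log2 fold change of -1.49 ± 0.22 (SE; limma adjusted p = 0.0156). Lmnb1 had 709.6, 590.3, 366 and 270.2 at day 14, 1048, 1386, 1326 and 1600.2 at day 7 and 315, 354 and 443 in the controls, a log2 fold change of -1.55 ± 0.23 (SE; limma adjusted p = 0.0156). For both, each day 7 library stood above every day 14 and control library. Day 14 replicates 1 and 2 of Lmnb1 also lay above the controls. Grk3 lies at chr5:112910482-113015791 on the minus strand and Lmnb1 at chr18:56707813-56753424 on the plus strand.

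**Figure D2:**
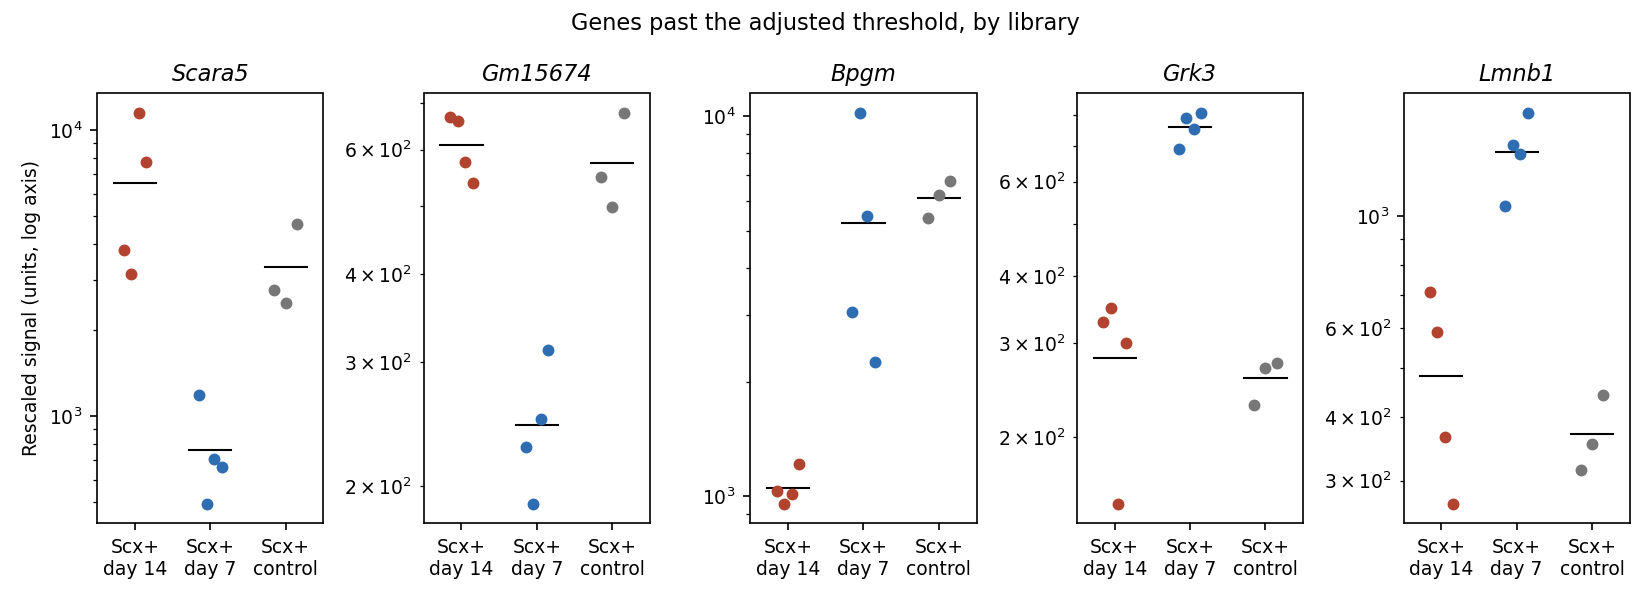
Rescaled signal (log axis, units of the deposited scale) of the 5 genes past the adjusted threshold, 1 point per library and a line at the group mean, in Scx+ day 14 (n = 4), Scx+ day 7 (n = 4) and Scx+ control (n = 3). The day 14 and day 7 points do not overlap in any panel.

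These 5 calls depended on single libraries. The number of genes past the threshold was 0 without day 7 replicate 3 (1500 genes at an unadjusted p under 0.05), 1 without day 7 replicate 2 or day 14 replicate 3, 2 without day 7 replicate 4, 4 without day 7 replicate 1, 3 without day 14 replicate 2, 12 without day 14 replicate 4 and 27 without day 14 replicate 1. No call among the 5 held without day 7 replicate 3 (adjusted p = 0.0896 each). Without day 7 replicate 2, Bpgm alone held (adjusted p = 0.0264), and Scara5, Grk3, Lmnb1 and Gm15674 had adjusted p = 0.0614, 0.0614, 0.0728 and 0.109. Without day 14 replicate 3, Grk3 alone held (adjusted p = 0.0135), and Scara5 had 0.0733 and the other 3 genes 0.0936. Without day 7 replicate 4, Scara5, Grk3 and Lmnb1 were lost (adjusted p = 0.0532, 0.0532 and 0.0798). Bpgm and Gm15674 were lost without day 14 replicate 2 (adjusted p = 0.0732 and 0.0855), and Gm15674 without day 7 replicate 1 (adjusted p = 0.0775). The split by direction moved with the scaling, from 2 higher and 3 lower to 7 and 4 with a trimmed mean, 1 and 3 with library totals and 4 and 24 on the deposited scale. In a fit of the 8 compared libraries alone 13 genes passed, and Gm15674 (adjusted p = 0.0479) was the only one of the 5 among them. Scara5, Grk3, Lmnb1 and Bpgm had adjusted p = 0.0546, 0.0546, 0.0620 and 0.0888 there. Over all 22 alternatives run, none of the 5 genes changed sign. Counts also moved with what libraries held or how much each was trusted: 24 genes passed with the muscle list mean as a covariate, all 5 among them, 0 passed with the erythroid list mean, which itself separates the days, as a covariate (1620 at an unadjusted p under 0.05), and 616 passed with limma's sample quality weights, all 5 among them.

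Genes with the next smallest p, shown in the plot of named genes by library, did not pass. They were picked for groups without overlap. Among those higher at day 14, Rcan2, an inhibitor of calcineurin, had 1129.6, 958, 1175 and 954 at day 14 and 626, 614, 574 and 517 at day 7 (log2 fold change 0.85 ± 0.15, limma adjusted p = 0.0512). Pdp1, the phosphatase that activates pyruvate dehydrogenase, had 2715, 2949.5, 3506 and 2648 at day 14 and 1785, 1727, 1829.9 and 1957 at day 7 (0.69 ± 0.13, adjusted p = 0.0512). Pi16, a marker of fibroblasts in the loose tissue around organs and vessels, had 10731, 6249.7, 10305 and 6786 at day 14 and 3692, 1949, 1421 and 1601 at day 7 (2.04 ± 0.41, adjusted p = 0.0758). Znhit6, Aktip, Pcmtd2, Per3 and Mturn were the others, with log2 fold changes of 0.59 to 1.40 and adjusted p = 0.0512 to 0.0829.

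Among those lower at day 14, Ptx3, a soluble pattern recognition protein of innate immunity, had 759, 372, 296 and 429.6 at day 14, 2163, 2027, 1761 and 1745 at day 7 and 535, 728 and 494 in the controls (log2 fold change -2.13 ± 0.40, limma adjusted p = 0.0547). Cdt1, which licenses origins of DNA replication, had 361, 326, 221 and 268 at day 14, 528, 744, 651 and 673 at day 7 and 51.4, 60.7 and 39.3 in the controls (-1.15 ± 0.21, adjusted p = 0.0512). Both were lower in every day 14 library than in any day 7 library. Lgals3bp, Tuba1c (an alpha-tubulin), Slc37a2, Rnpep and M6pr (the cation-dependent mannose 6-phosphate receptor) had log2 fold changes of -1.12 to -0.61 with adjusted p = 0.0512 to 0.0700.

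**Figure D3:**
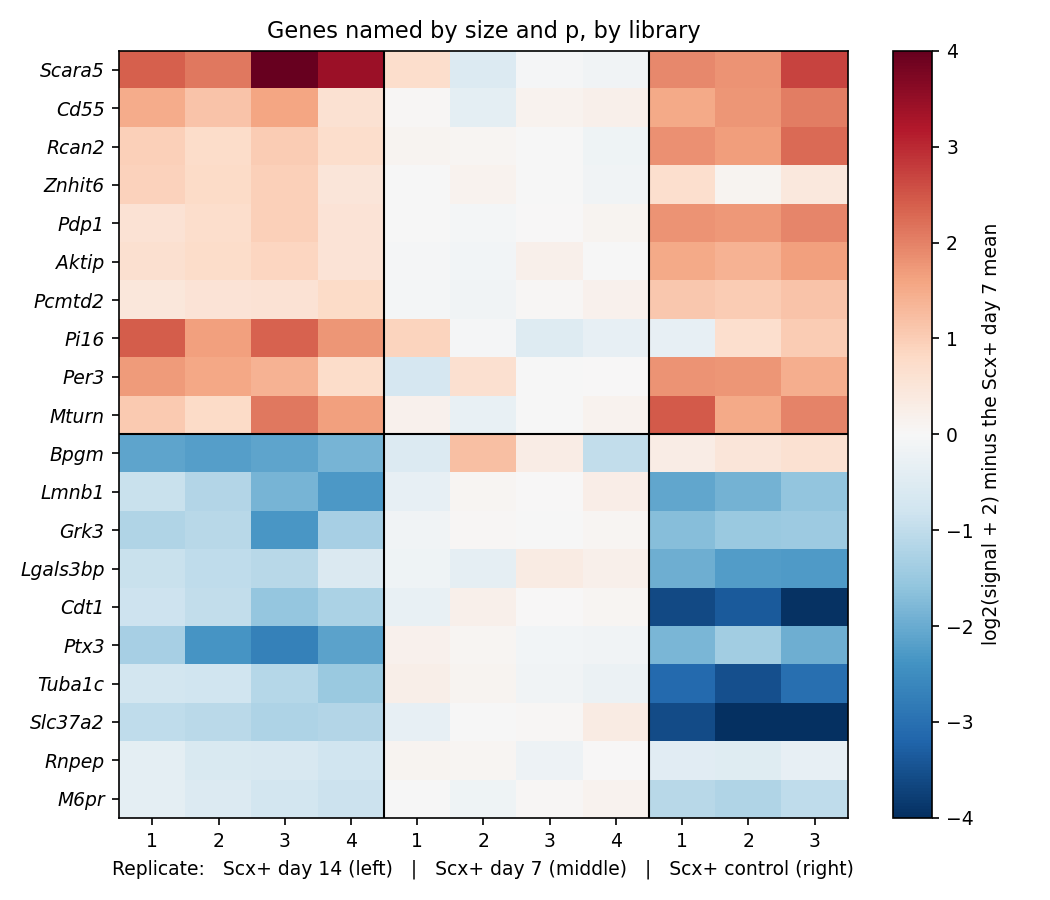
The 10 genes higher (upper block) and 10 lower (lower block) at day 14, in rows, by library in columns (Scx+ day 14 left, Scx+ day 7 middle, Scx+ control right). Colour is log2(signal + 2) minus the Scx+ day 7 mean of the gene, with the scale ending at -4 and 4. The Scx+ day 14 and day 7 libraries separate in every row, a condition of their choice. The control mean lies on the day 14 side of the day 7 mean in every row but Bpgm.

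Genes that define tendon did not differ beyond the spread between libraries, which was wide. Of 14 tendon lineage genes 0 passed in limma (0 higher and 1 lower at an unadjusted p under 0.05, and 2 lower in the authors' deposited table), and the median log2 fold change was 0.17 (0.58 with the muscle and 0.83 with the erythroid covariate), beside 0.00436 over all genes tested. For Scx it was -0.26 ± 0.39 (SE; adjusted p = 0.873), for the tendon homeobox factor Mkx 0.46 ± 0.41 (adjusted p = 0.755) and for Tnmd 1.17 ± 0.62 (adjusted p = 0.534). The matrix glycoprotein tenascin C (Tnc) had 35989, 32533, 10502 and 13088 at day 14 and 44223, 61012, 47797 and 44979.9 at day 7, without overlap (log2 fold change -1.29 ± 0.48, adjusted p = 0.325).

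Collagens showed no passing gene. Of the 11 fibrillar collagens, 0 passed in limma and 0 had an unadjusted p under 0.05 or a call in the authors' deposited table, with a median log2 fold change of -0.27 that turned to 0.0732 with the muscle and 0.74 with the erythroid covariate. Of 21 other collagens, 14 had negative values and 0 passed in limma, with 1 higher and 2 lower at an unadjusted p under 0.05. The authors' deposited table calls 3 of them lower. Col1a1, which encodes the main chain of type I collagen, had a log2 fold change of -0.27 ± 0.41 (SE; limma adjusted p = 0.872), with overlapping libraries. The other type I chain, Col1a2, and the type III chain Col3a1 had log2 fold changes of 0.03 ± 0.42 and 0.14 ± 0.41 (SE; adjusted p = 0.993 and 0.948). Of the 29 genes that fold, modify and crosslink collagen, 0 passed in limma (1 at an unadjusted p under 0.05, 0 in the authors' deposited table; median -0.11, but 0.11 with the muscle covariate and 0.18 with the erythroid one), and Lox, the crosslinking oxidase, had 0.03 ± 0.38.

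Small leucine-rich proteoglycans, which set fibril diameter, leaned the same way in all 12 members: 12 of 12 log2 fold changes were positive, with a median of 0.46 (1.03 with the muscle and 1.20 with the erythroid covariate), but 0 passed in limma, 1 had an unadjusted p under 0.05 and 2 are called higher in the authors' deposited table. Prelp had 16795, 13563, 30062 and 34199.5 at day 14 and 7004, 17457, 10924 and 7790.3 at day 7 (log2 fold change 1.12 ± 0.49, adjusted p = 0.427). Decorin (Dcn) had 0.48 ± 0.45, fibromodulin (Fmod) 0.44 ± 0.55 and biglycan (Bgn) 0.14 ± 0.25 (adjusted p = 0.767, 0.840 and 0.895). Each of these 4 overlapped between the days.

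Of 13 genes of hyaluronan and large proteoglycans, 11 had negative log2 fold changes, with a median of -0.45 (-0.29 with the muscle and 0.00339 with the erythroid covariate). Of them 0 passed in limma, 0 were higher and 3 lower at an unadjusted p under 0.05, and the authors' deposited table calls 3 lower. Among matricellular proteins and elastic fibre genes, members pointed both ways. Of 18 matricellular proteins tested, which modulate how cells bind matrix, 0 passed in limma, with 3 higher and 2 lower at an unadjusted p under 0.05 (2 higher and 1 lower in the authors' deposited table). Nov, a CCN family protein, had 5894, 5786, 13529.7 and 9016 at day 14, 2775, 2722, 1713 and 2409 at day 7 and 1109, 1059.5 and 2479.5 in the controls (log2 fold change 1.76 ± 0.52, adjusted p = 0.219). Its relative Wisp2 had 1.16 ± 0.33 and tenascin X (Tnxb), which binds collagen fibrils, 1.58 ± 0.46, both without overlap. Among elastic fibre genes, also 0 of 16 in limma with 2 higher and 2 lower at an unadjusted p under 0.05 (3 higher and 3 lower in the authors' deposited table), Efemp1 had 1.41 ± 0.42 and the latent TGF-beta binding protein Ltbp2 -1.15 ± 0.36. Angptl7, a secreted angiopoietin-like protein, had 11575, 10959, 22101 and 40242 at day 14, 4211, 4845, 4597 and 1768 at day 7 and 80824, 33554 and 16830.1 in the controls (log2 fold change 2.35 ± 0.68, adjusted p = 0.211; 2.49 with adjusted p = 1.70e-06 in the authors' deposited table). Nov, Wisp2, Tnxb, Efemp1, Ltbp2, Angptl7 and Tnc were named after their values were seen.

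Matrix proteases also pointed both ways, with 0 of 21 past the threshold in limma, 3 higher and 3 lower at an unadjusted p under 0.05, and 2 higher and 4 lower in the authors' deposited table. The gelatinase Mmp9 had 2245, 749.9, 616 and 154 at day 14, 11374, 6656, 4818 and 10797 at day 7 and 5.30, 44.8 and 65.6 in the controls (log2 fold change -3.64 ± 0.90, adjusted p = 0.170). The aggrecanase Adamts4 had 1237, 686, 582 and 1206 at day 14 and 2269, 2271, 3083 and 3591 at day 7 (-1.64 ± 0.48, adjusted p = 0.214). Its relative Adamts5 lay the other way, with 4717, 3442, 4761 and 3258 at day 14 and 2674, 1532, 2169 and 1591 at day 7 (1.04 ± 0.33, adjusted p = 0.235). None of these 3 overlapped between the days.

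Cell division genes were lower at day 14 without any of them passing the adjusted threshold. All 25 DNA replication genes and all 28 mitosis genes had negative log2 fold changes, with medians of -0.79 and -1.68. Of them 0 passed in limma, although 20 of 25 and 27 of 28 had an unadjusted p under 0.05. Of all genes tested, 6.35% were lower at that p. Groups did not overlap for 13 replication genes and 10 mitosis genes, beside 6.11% of all genes tested with day 14 below. The authors' deposited table calls 11 replication genes lower and 0 mitosis genes, beside 3.08% of all its genes.

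The day 14 libraries differed widely among themselves in the mitosis genes, as the plot of both lists by library shows. Mki67, which encodes the proliferation antigen Ki-67, had 4291, 4449, 1480.2 and 247 in day 14 replicates 1 to 4, 3448, 7221, 6085 and 6328 in the day 7 replicates and 425, 93.3 and 124 in the controls. Top2a, the topoisomerase that untangles replicated chromosomes, had 2482, 2177, 776 and 159 at day 14, 2104, 4128, 3654 and 4109 at day 7 and 32.6, 57.9 and 154 in the controls. Both were above day 7 replicate 1 in day 14 replicates 1 and 2, lower in replicate 3 and lowest in replicate 4. The mean log2 signal of the mitosis list was 9.69, 9.67, 8.32 and 6.28 at day 14, 9.71, 10.5, 10.1 and 10.2 at day 7 and 5.59, 5.18 and 5.48 in the controls. The SD over libraries was 1.61 at day 14 and 0.330 at day 7. For Mki67 the log2 fold change was -1.77 ± 0.71 (SE; adjusted p = 0.369), and for Top2a -1.90 ± 0.65 (adjusted p = 0.281). Day 14 replicate 4 also had the largest muscle share of its group, whereas replicate 3, with less mitosis signal than replicate 2, had a smaller muscle share than replicate 2. The part of the muscle share in these values was not tested.

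The mean log2 signal of the DNA replication list ranked the day 14 libraries alike over a smaller range (9.38, 9.29, 8.80 and 8.29 at day 14, 9.45, 9.99, 9.79 and 9.93 at day 7). The helicase subunit Mcm5 had 808, 639, 439.7 and 174 at day 14, 845, 1608, 1264 and 1506 at day 7 and 61.7, 131 and 172 in the controls (log2 fold change -1.50 ± 0.39, adjusted p = 0.174). The sliding clamp Pcna had 3098, 3285, 2477 and 1723 at day 14 and 3336, 4092, 3703 and 3951 at day 7 (-0.55 ± 0.21, adjusted p = 0.348). The maintenance methyltransferase Dnmt1 had 2167, 1564, 1346 and 1479.7 at day 14 and 2072, 2864, 2799.7 and 3063 at day 7 (-0.73 ± 0.15, adjusted p = 0.0829), with 1 overlapping library. Under sample quality weights 13 of the 25 replication genes and 4 of the 28 mitosis genes passed in limma.

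**Figure D4:**
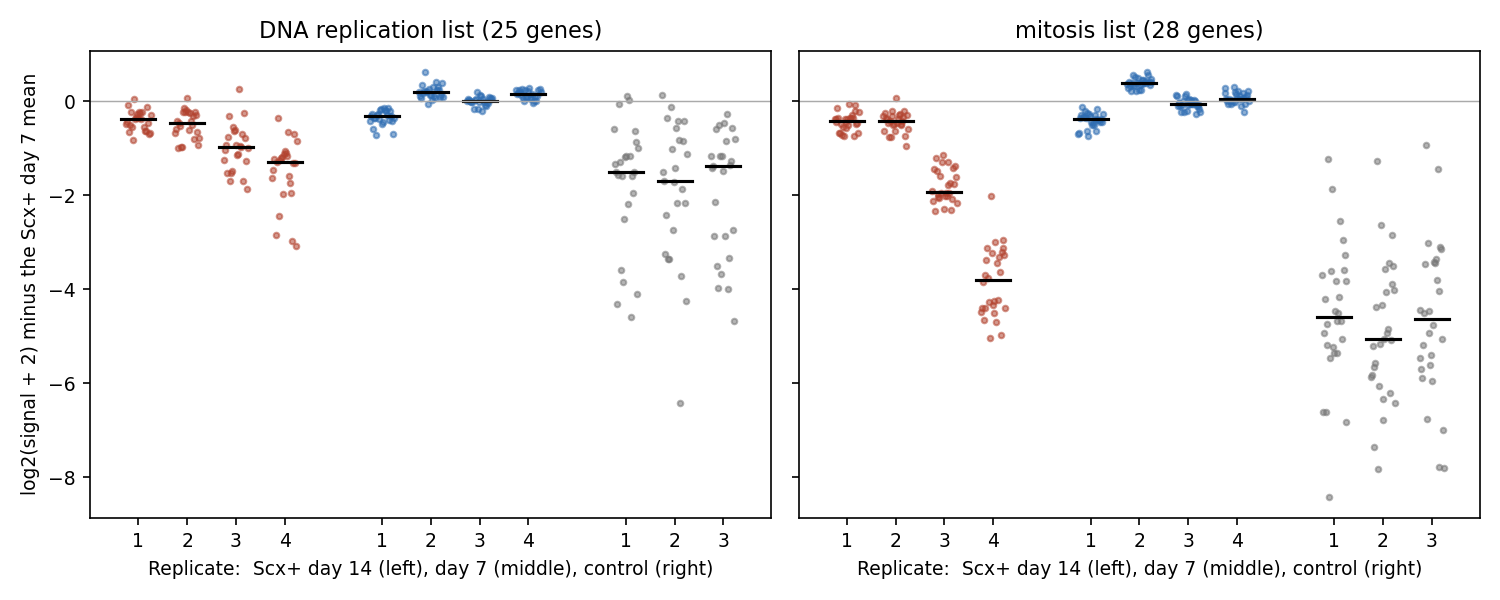
Members of the DNA replication list (left, 25 genes) and the mitosis list (right, 28 genes) in each library: log2(signal + 2) minus the gene's Scx+ day 7 mean, with a line at the list median. Day 14 replicates 1 and 2 lie near the day 7 libraries, replicate 3 lower, and replicate 4 lowest, nearest to the controls.

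Mitosis genes share promoter elements that the choice of list did not use, and a few are printed because all members of the list had the same sign. Many late cell cycle promoters hold the cell cycle homology region (CHR), which the DREAM complex binds, and a box bound by the factor NF-Y. The letters searched for the homology region were TTTGAA. A related form of that region was searched as well, with the letters TTCGAA. The NF-Y box was searched for with the letters CCAAT. Both strands were searched, from 250 bases before to 50 bases after each RefSeq start (GRCm38.p6). Of the 23 mitosis genes with a promoter in the table, 18 held a CHR (78.3%), beside 5 of 20 replication genes (25%) and 16.9% of the 12775 tested genes with one. The NF-Y box stood in 18 mitosis genes (78.3%), 13 replication genes (65%) and 42.2% of all. Below are the 120 bases before the start of 5 mitosis genes with a CHR in that stretch, on the strand of the gene, with each match on either strand in capitals. Matches of the 2 elements overlap in 0 of them. A match is a description of the letters, not of binding. Kif11 and Prc1 also held a CHR in that stretch and are not printed.
Mki67: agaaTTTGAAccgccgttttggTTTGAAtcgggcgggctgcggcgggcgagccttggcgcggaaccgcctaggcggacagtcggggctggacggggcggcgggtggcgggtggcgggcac
Top2a: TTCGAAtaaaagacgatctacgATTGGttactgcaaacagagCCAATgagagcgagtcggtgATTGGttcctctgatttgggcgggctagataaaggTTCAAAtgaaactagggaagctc
Cdc20: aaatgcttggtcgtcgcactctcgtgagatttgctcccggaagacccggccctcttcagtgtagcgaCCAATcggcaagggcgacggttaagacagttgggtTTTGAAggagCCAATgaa
Cdk1: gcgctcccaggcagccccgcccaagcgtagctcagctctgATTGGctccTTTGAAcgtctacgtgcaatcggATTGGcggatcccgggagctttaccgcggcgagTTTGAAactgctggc
Ube2c: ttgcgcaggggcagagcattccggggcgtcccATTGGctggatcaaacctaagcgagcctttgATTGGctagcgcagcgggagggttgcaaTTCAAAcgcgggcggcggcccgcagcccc

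The stretches are chr7:135716380-135716499 (Mki67, minus strand), chr11:99024190-99024309 (Top2a, minus), chr4:118437344-118437463 (Cdc20, minus), chr10:69352913-69353032 (Cdk1, minus) and chr2:164769809-164769928 (Ube2c, plus). Cdk1, the mitotic kinase, had 1045, 1204, 599 and 128 at day 14 and 1317, 2184, 1558 and 1718 at day 7. Cdc20, which activates the anaphase promoting complex, had 778, 823, 520.4 and 121 at day 14 and 960.0, 1629.5, 1005 and 1138 at day 7. Ube2c, the ubiquitin-conjugating enzyme of that complex, had 451, 563, 149.9 and 58.8 at day 14 and 671, 992, 759 and 644 at day 7. Each of these 3 was lower in every day 14 library than in any day 7 library, which holds for only 10 of the 28 mitosis genes. Foxm1, a transcription factor of these promoters, had 945, 794, 390.4 and 169 at day 14 and 978, 1742, 1263 and 1408 at day 7 (log2 fold change -1.48 ± 0.41, limma adjusted p = 0.185).

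Markers of fibroblasts of the sheath and loose connective tissue were higher at day 14 for several members. Of 13 genes, 0 passed in limma, 7 had an unadjusted p under 0.05 upward and 0 downward, 6 had groups without overlap, all above, and the authors' deposited table calls 6 higher. The median log2 fold change was 0.57, and 0.97 with the erythroid covariate. Over all genes tested, 4.22% were higher at an unadjusted p under 0.05 and 3.78% lay above without overlap. The authors' deposited table calls 1.91% of its genes higher. Beside Pi16, the peptidase Dpp4, which marks fibroblast progenitors, had 1678, 959.6, 1357 and 525 at day 14, 482, 252, 206 and 302 at day 7 and 172, 289.9 and 429 in the controls (log2 fold change 1.80 ± 0.40, adjusted p = 0.111). Tetranectin (Clec3b) had 15115, 9422, 25393 and 10153 at day 14 and 6883, 3822, 2857 and 3125 at day 7 (1.82 ± 0.48, adjusted p = 0.178). Gelsolin (Gsn), which severs actin filaments, had 36344, 30056, 83263 and 75922 at day 14 and 21894, 27036, 24120.4 and 22766 at day 7 (1.10 ± 0.31, adjusted p = 0.195). Cd34 and Mfap5 had 0.74 and 0.64. Pdgfra, Thy1, Dpt and Tppp3, which mark fibroblasts or sheath cells as well, lay between -0.09 and 0.19.

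Inflammatory signals were lower at day 14 in most members, without a passing gene. Of 20 chemokines 18 had negative log2 fold changes (median -0.70, and -1.25 with the erythroid covariate). In limma 0 passed, 8 were lower at an unadjusted p under 0.05 and 7 lay below without overlap. The authors' deposited table calls 8 lower. Over all genes, these 3 downward shares were 6.35%, 6.11% and 3.08%. Cxcl5, which draws neutrophils, had 60.9, 64.5, 26.2 and 41.5 at day 14, 747, 330.3, 438 and 908 at day 7 and 0, 0 and 1.30 in the controls (log2 fold change -3.56 ± 0.90, adjusted p = 0.170). The monocyte chemokine Ccl2 had 636, 647, 448 and 256 at day 14 and 1172, 1286, 1468 and 1959 at day 7 (-1.63 ± 0.53, adjusted p = 0.241). Its relative Ccl7 had -1.70 ± 0.57. Each of these 3 lay below every day 7 library in all 4 day 14 libraries. Cxcl12, Ccl11 and Cxcl13 had -0.27, 0.54 and 0.90, with overlap.

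Of 16 cytokines and inflammatory enzymes, 10 had negative and 6 positive log2 fold changes, with a median of -0.28 and a highest value of 0.51. In limma 0 passed, and 5 had an unadjusted p under 0.05 downward and 0 upward. The authors' deposited table calls 5 lower. The shares over all genes were 6.35% downward and 4.22% upward at that p, and 3.08% called lower by the authors. Interleukin 6 (Il6) had 18.1, 11.5, 5.70 and 12.5 at day 14 and 123, 41.7, 85.6 and 192 at day 7 (log2 fold change -2.90 ± 0.74, adjusted p = 0.170). Interleukin 1 beta (Il1b) had 57.8, 77.2, 48.6 and 10.5 at day 14 and 523, 279.9, 171 and 769 at day 7 (-3.17 ± 1.01, adjusted p = 0.233). Cyclooxygenase 2 (Ptgs2), which starts prostaglandin synthesis, had 396, 362, 236 and 305 at day 14, 1381, 1496, 639.8 and 1746 at day 7 and 13.9, 33.1 and 40.7 in the controls (-1.95 ± 0.50, adjusted p = 0.174). The cytokine Lif and the interleukin 1 antagonist Il1rn had -1.22 and -1.35. These 5 did not overlap between the days. Csf1 and Alox5, of the same list, had -0.01 and 0.39, with overlap.

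Leukocyte markers leaned the same way. Of 20 macrophage and monocyte genes, 19 had negative log2 fold changes (median -0.47, and -0.80 with the erythroid covariate), 0 passed in limma, 6 had an unadjusted p under 0.05 and 7 did not overlap, with 6 called lower in the authors' deposited table. The same downward shares over all genes were 6.35%, 6.11% and 3.08%. The growth factor receptor Csf1r had 8985, 7436, 6892 and 6667 at day 14, 12863, 11953, 13606 and 11177 at day 7 and 4669.7, 4682 and 7954 in the controls (log2 fold change -0.73 ± 0.27, adjusted p = 0.324). The Fc receptor Fcgr1 had 725, 909, 519 and 598 at day 14 and 1196, 1212, 1518 and 1703 at day 7 (-1.05 ± 0.30). Other members differed in overlap. C1qa, C1qb and C1qc had -0.42, -0.37 and -0.36, with overlap. Adgre1, Cx3cr1 and Cd68 had -0.66, -1.58 and -0.45, without overlap. All 10 MHC class II genes and all 8 mast cell genes tested also had negative values, with medians of -0.63 and -1.25, and 0 of either passed in limma (2 and 3 at an unadjusted p under 0.05, 1 and 2 in the authors' deposited table). With the muscle covariate these medians were -0.13 and -0.51. Of 8 neutrophil genes tested, 7 were negative (median -1.19, and -1.83 with the erythroid covariate and -0.43 without a filter on low values; 0 passed in limma, 2 at an unadjusted p under 0.05, 2 in the authors' deposited table). Of 13 lymphocyte genes tested, 11 were negative (median -0.51, -0.79 with the muscle and -0.92 with the erythroid covariate, and -1.50 with a stricter filter on low values), 0 passed in limma, 0 were higher and 3 lower at an unadjusted p under 0.05, and 2 are called lower in the authors' deposited table. The member with the lowest value was Cd4, a co-receptor of helper T cells, which had 145, 197, 73.1 and 52.5 at day 14 and 721, 630.3, 414 and 349 at day 7 (-2.28 ± 0.57, adjusted p = 0.170). Other T cell genes did not stand as low, with -0.51 for Cd3e, -0.23 for Cd8a and 0.45 for Cd3g, all with overlap, and Jchain, of antibody-secreting cells, had 1.32 with day 14 above day 7.

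Interferon response genes, induced by viral RNA and type I interferon, had 22 of 24 negative log2 fold changes and a median of -0.55. Of them 0 passed in limma, 10 were lower at an unadjusted p under 0.05, 6 lay below without overlap, and 7 are called lower in the authors' deposited table. Over all genes, these shares were 6.35%, 6.11% and 3.08%. The membrane protein Bst2 had 1204, 1801, 1391 and 1338 at day 14, 2444, 2026, 3028 and 3562 at day 7 and 761, 524 and 533 in the controls (log2 fold change -0.93 ± 0.20, adjusted p = 0.0829). Irf7, the transcription factor that amplifies the response, had 880.0, 1002, 686 and 1246 at day 14 and 1589.6, 1493, 2259.5 and 2729 at day 7 (-1.07 ± 0.27, adjusted p = 0.170). The antiviral protein Ifit3 had 1003, 1569, 1242 and 592 at day 14 and 543, 1211, 809 and 2018 at day 7, with overlap (0.03 ± 0.42, adjusted p = 0.994).

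Most erythroid genes other than Bpgm were low at day 14 as well. Of 14 tested, Bpgm included, 13 had negative log2 fold changes (median -3.12), 10 did not overlap and 9 had an unadjusted p under 0.05. Only Bpgm passed in limma. The authors' deposited table calls 7 of 9 lower, Bpgm among them. Among all genes tested, 6.11% lay below without overlap and 6.35% were lower at that p. The authors' table calls 3.08% of its genes lower. Alas2, the erythroid enzyme that starts haem synthesis, had 1458, 335, 613 and 1789.7 at day 14, 5148, 19222, 9679 and 4251 at day 7 and 258, 286 and 311 in the controls (log2 fold change -3.22 ± 0.88, adjusted p = 0.192). Slc4a1, the anion exchanger of the red cell membrane, had 124, 11.8, 154 and 192 at day 14 and 348, 1747, 1118 and 300.2 at day 7 (-2.99 ± 1.20). The beta globin Hbb-bt had 4896, 1273, 2430.5 and 4226 at day 14 and 18975, 76102, 35196 and 15153 at day 7 (-3.39 ± 1.59, adjusted p = 0.469). Globin copies are near identical and their reads may be split between them: Hba-a1 and Hbb-bs are listed at 0 in day 14 replicate 2, which may be a failed estimate. Day 7 replicate 2 was highest and day 14 replicate 2 lowest of the 8 libraries for Alas2, Slc4a1, Hbb-bt and Bpgm. In the controls, whose muscle shares were the highest, Bpgm lay within the day 7 range, while Alas2 lay below every day 14 library. The part of red cells or muscle in the Bpgm values was not tested.

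Skeletal muscle fibre genes had positive log2 fold changes in 22 of 22 members (median 2.42), but the libraries overlapped for every member. Of them 0 passed in limma, 4 had an unadjusted p under 0.05 and 1 is called higher in the authors' deposited table. The fast myosin Myh1 had 23605, 513420.1, 290074 and 1452142 at day 14, 16164, 1173, 140700.1 and 174688 at day 7 and 404506, 431089.8 and 406214 in the controls (log2 fold change 3.35 ± 1.51, adjusted p = 0.448). Skeletal actin (Acta1) had 18157, 386969, 189165 and 528963 at day 14 and 16870.2, 1876, 169395 and 163981 at day 7 (2.41 ± 1.39). Both were lowest in replicate 1 at day 14 and in replicate 2 at day 7. Embryonic myosin Myh3, made in new fibres, had 1148, 23123, 4631 and 14858 at day 14 and 1234, 91.0, 32570.1 and 13071 at day 7 (1.31 ± 1.48). Des, which counts among the smooth muscle list but is abundant in skeletal fibres, had 1.22 ± 1.28 (adjusted p = 0.80) without a covariate and -1.15 with the muscle covariate (adjusted p = 0.0234).

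In limma 0 genes passed in each of the TGF-beta and activin, BMP and GDF, IGF, PDGF and FGF, Wnt, YAP target and immediate early gene lists, with medians between -0.37 and 0.14 (up to 0.33, for the BMP and GDF list, with the erythroid covariate). At an unadjusted p under 0.05, no list had more than 3 members higher or 4 lower, and the authors' deposited table calls at most 2 higher and 4 lower in any. The Wnt list, with 3 higher and 3 lower at an unadjusted p under 0.05 (2 higher and 1 lower in the authors' deposited table), held members that separated the days. Sfrp1, a secreted Wnt antagonist, had 7942, 5798, 4772 and 7359 at day 14, 19786, 23925, 17279.6 and 18918 at day 7 and 954, 974 and 1432 in the controls (log2 fold change -1.64 ± 0.38, adjusted p = 0.127; -1.63 with adjusted p = 1.08e-11 in the authors' deposited table). The ligand Wnt10b had 469, 139.7, 271 and 360.0 at day 14 and 138, 59.9, 79.9 and 52.2 at day 7 (1.86 ± 0.50, adjusted p = 0.178). Axin2, a target and inhibitor of the pathway, had 305, 326, 356 and 518 at day 14 and 140.2, 274, 226 and 220.2 at day 7 (0.81 ± 0.26). Sfrp4, a relative of Sfrp1, had 1841, 2264, 4153 and 3922 at day 14 and 1661, 1226, 683 and 911 at day 7 (1.43 ± 0.49). Sfrp1, Wnt10b, Axin2 and Sfrp4 each separated the days.

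Of the remaining lists, ribosome biogenesis had 17 of 18 negative members (median -0.28, and -0.51 with the erythroid covariate, 6 at an unadjusted p under 0.05), and the nuclear genes of the respiratory chain had 26 of 28 positive (median 0.19, but -0.15 with the muscle and -0.33 with the erythroid covariate, 0 at an unadjusted p under 0.05). In both 0 passed in limma, with 2 and 0 in the authors' deposited table. Over all genes tested, 6.35% were lower at an unadjusted p under 0.05. The authors' deposited table calls 3.08% of its genes lower. In all, 42 of the 43 lists had 0 passed genes, and the plot of list medians gives each. Only 0.0301% of all genes tested passed, so 0 in a list does not set it apart. The complement inhibitor Serping1 had 30594, 25926, 43017 and 42534 at day 14 and 19675, 21939.7, 18304 and 16765 at day 7 (0.86 ± 0.27, adjusted p = 0.227), and Mgp, which inhibits mineralisation, 29950.0, 30036, 65630.0 and 44102 at day 14 and 28033, 16920.2, 17919 and 17641 at day 7 (1.03 ± 0.28, adjusted p = 0.185), both without overlap.

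**Figure D5:**
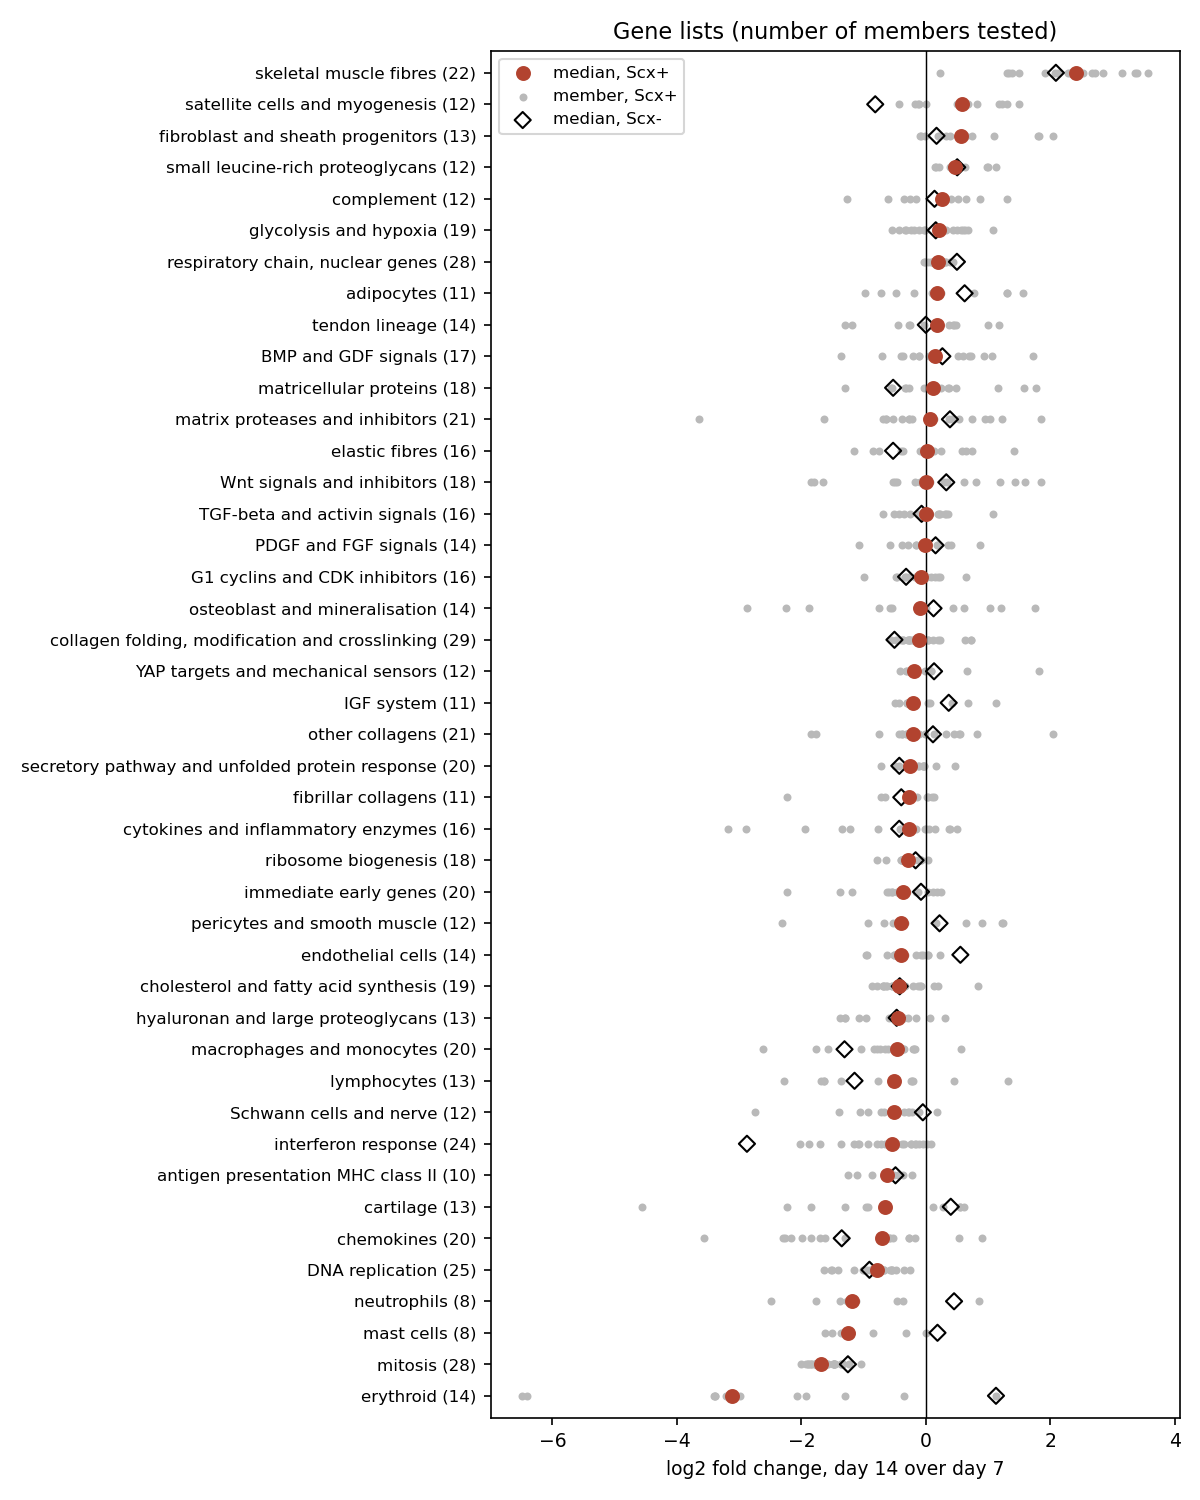
log2 fold change of day 14 over day 7 for the members tested of each of 43 lists (grey points, number in brackets) and their median (red) in Scx+, with the median of the same members in Scx- (open diamond). Scx+ medians run from -3.12 (erythroid) to 2.42 (skeletal muscle fibres), where the Scx- medians are 1.13 and 2.09. The interferon median is -0.55 in Scx+ and -2.88 in Scx-.

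The most like comparison, day 14 against day 7 in mice with deleted scleraxis (Scx-, 4 libraries each, tamoxifen given), shares no library with this one. There 232 genes rose and 641 fell in limma, and 2 of the 5 genes of the Scx+ comparison, Grk3 and Lmnb1, passed with the same sign (log2 fold changes -1.01 ± 0.22 and -0.91 ± 0.23, adjusted p = 0.0113 and 0.0298). A larger count in Scx- does not show that its changes were larger. The difference itself passed for 3 genes, 0.018% of those tested. For Bpgm the change in Scx+ less the change in Scx- was -3.07 ± 0.44 log2 units (SE; limma adjusted p = 0.0238). In Scx- it averaged 1423 ± 127 at day 14 and 725 ± 167 at day 7 (SD, n = 4 each). Irf7 fell in Scx- to 839.7 ± 277 at day 14, against 10324 ± 3098 at day 7, and its difference was 2.56 ± 0.38 (adjusted p = 0.0238). Ifit3 fell in Scx- to 622 ± 119 at day 14, against 9089.9 ± 6018 at day 7, with a difference of 3.69 ± 0.60 (adjusted p = 0.0496). For Scara5 the difference was 2.06 ± 0.60 (adjusted p = 0.417), and its log2 fold change in Scx- was 0.92 ± 0.42. These differences depended on single libraries too. Of the day 14 libraries of Scx+, replicates 1 and 2 each left 0 genes past the threshold in limma when removed, and replicate 3 left 1. Of its day 7 libraries, replicates 1 and 2 each left 1 gene and replicate 3 left 0. In Scx-, the count was 0 on removal of the third day 14 or the second day 7 library, 1 on removal of the third day 7 library and 37 on removal of the first. Where the count was 0, 561 to 1007 genes had an unadjusted p under 0.05.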

How the data were processed

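RNA sequencing of mouse plantaris tendon gave 19 libraries in 5 groups, and the samples were grouped by the genotype and title labels. The submitters' processing notes name FastQC, STAR, DESeq2 and mm10, with no version or role. The authors' deposited main table holds a scaled signal per gene that is not whole, so no read count or depth was recovered, and count tests were not used. A second deposited table holds the authors' log2 fold changes with standard errors and adjusted p-values. Its sign was checked against the group means: a positive value is higher at day 14.

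Rescaling took the median of ratios to the geometric mean, from the 13703 genes that no library lists at 0. Of 24972 genes, the 16625 that reach 10 after rescaling in no fewer than 3 libraries went into limma 3.58.1 in R 4.3.3 on log2(value + 2), two-sided, with a mean-variance trend, robust moderation and all 19 libraries in 1 fit. P-values were Benjamini-Hochberg adjusted, with 0.05 as the threshold. Fold changes are on the log2(value + 2) scale, which understates those of low genes. The procedure was tested on simulated data. On the deposited scale without rescaling, the median of all genes shifts to -0.10.

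The members of the comparison and the 43 gene lists were chosen with earlier results of these data known. Lists are described by counts and medians, without a test of the list. Genes were named by rule: Scx, Mkx, Tnmd, Fmod, Col1a1, Col1a2, Col3a1, Mki67 and Top2a, then up to 15 genes past the threshold per direction with a mean of at least 5 ppm, a regular symbol and groups without overlap, filled with the smallest p up to 10, and from each list the passing members (4 at most) or, failing those, the 2 of highest signal. The latter number 79, of which 14 had an unadjusted p under 0.05, with log2 fold changes of -2.28 (Cd4) to 3.35 (Myh1). All other genes were named after their values were seen. Positions are from GENCODE M21 (GRCm38) and promoters from RefSeq (GRCm38.p6).

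Alternatives were library totals, a trimmed mean, the deposited scale, no filter or 1 ppm, a pseudocount of 10 or 0.5, no robust moderation, the 8 libraries alone, a replicate block, muscle or erythroid covariates, quality weights and leaving out each library. The values of 1 gene named by the rule are not reported here.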

Additional observations from a re-analysis of the deposited data

Results flagged for a closer look

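The change in Scx+ differed from the change in Scx- for 3 genes in limma. Bpgm had a difference of -3.07 ± 0.44 log2 units (adjusted p = 0.0238), with -2.07 ± 0.31 in Scx+ and 0.99 ± 0.31 in Scx-. Irf7 had a difference of 2.56 ± 0.38 (adjusted p = 0.0238), with -1.07 ± 0.27 in Scx+ and -3.63 ± 0.27 in Scx-. Ifit3 had a difference of 3.69 ± 0.60 (adjusted p = 0.0496), with 0.03 ± 0.42 in Scx+ and -3.67 ± 0.42 in Scx- (each ± SE).

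In 25 of 468 sets of 4 values (genes and list means, log2 scale), 1 library stood apart from the other 3 beyond Dixon's 95% critical value, the gap to its nearest neighbour as a share of the whole range. That is 5.34% of the sets, and chance gives about 5%. The share is given after each name. Among the day 14 libraries, replicate 1 was highest for collagen folding, modification and crosslinking (list mean) at 0.8293, hyaluronan and large proteoglycans (list mean) at 0.933 and matricellular proteins (list mean) at 0.868. Replicate 2 was lowest for Fgfr1 at 0.835, Itgb3 at 0.983, Slc4a1 at 0.837 and elastic fibres (list mean) at 0.850. Replicate 3 was highest for Cdkn1c at 0.956. Replicate 4 was lowest for Alox5ap at 0.873, Bmpr1a at 0.921, Dcn at 0.859, Lyz2 at 0.851, Pmp22 at 0.980 and Sfrp2 at 0.932. Among the day 7 libraries, replicate 1 was highest for Fgfr1 at 0.884 and Mgp at 0.886; it was lowest for Bhlhe41 at 0.864 and Tef at 0.870. Replicate 2 was highest for Ccnd2 at 0.878 and Csf1 at 0.830. Replicate 3 was highest for glycolysis and hypoxia (list mean) at 0.877; it was lowest for Ocstamp at 0.892 and Oscar at 0.897. Replicate 4 was highest for Fos at 0.896; it was lowest for Angptl7 at 0.861.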

How the results depend on the processing

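The number of genes past the threshold was 5, and it was 4 with library totals, 5 with a pseudocount of 0.5 or without robust moderation, 11 with the trimmed mean, 28 on the deposited scale, 19 without a filter, 14 with the strict filter, 21 with a pseudocount of 10, 13 in the fit of the 8 libraries alone (1 of the 5 among them), 24 with the muscle covariate, 0 with the erythroid covariate and 616 with quality weights. Leaving out 1 library gave 0 to 27. Leaving out day 14 replicates 2 and 4 together, chosen after seeing the data, gave 4, with Scara5 and Grk3 among them. Same-numbered libraries did not deviate together in every pair (correlations 0.278, -0.198, -0.0928 and 0.328). So few values cannot show whether the numbers pair the samples, and the labels do not say. With the replicate block 31 genes passed, 0 of the 5 among them. For the difference between Scx+ and Scx-, library totals gave 3 genes and leaving out 1 library 0 to 37. Of the 22 alternatives, Scara5 kept its call in 15, Bpgm in 15, Grk3 in 16, Lmnb1 in 14 and Gm15674 in 13. Des turned to -1.15 with the muscle covariate (adjusted p = 0.0234). The cause of these shifts was not tested. Of 946 list medians over the alternatives, 884 moved by less than 1 SD of the list mean over libraries, and the other 62 follow. With library totals they were ribosome biogenesis -0.35. On the deposited scale they were ribosome biogenesis -0.39, TGF-beta and activin signals -0.11 and PDGF and FGF signals -0.12. Without a filter they were neutrophils -0.43. With the strict filter they were lymphocytes -1.50. With the muscle covariate they were other collagens -0.00185, collagen folding 0.11, small leucine-rich proteoglycans 1.03, matricellular proteins 0.51, elastic fibres 0.22, ribosome biogenesis -0.35, secretory pathway 0.00948, TGF-beta and activin signals 0.12, IGF system 0.00861, PDGF and FGF signals 0.12, mast cells -0.51, antigen presentation MHC class II -0.13, skeletal muscle fibres 0.0942, respiratory chain -0.15 and glycolysis and hypoxia -0.21. With the erythroid covariate they were tendon lineage 0.83, fibrillar collagens 0.74, other collagens 0.51, collagen folding 0.18, small leucine-rich proteoglycans 1.20, hyaluronan and large proteoglycans 0.00339, matricellular proteins 0.70, elastic fibres 0.49, matrix proteases and inhibitors 0.42, ribosome biogenesis -0.51, secretory pathway -0.0239, TGF-beta and activin signals 0.13, BMP and GDF signals 0.33, IGF system 0.30, PDGF and FGF signals 0.14, Wnt signals and inhibitors 0.30, YAP targets and mechanical sensors 0.15, macrophages and monocytes -0.80, neutrophils -1.83, chemokines -1.25, complement 0.48, endothelial cells 0.0911, pericytes and smooth muscle 0.15, fibroblast and sheath progenitors 0.97, Schwann cells and nerve 0.0536, erythroid -0.13, respiratory chain -0.33 and glycolysis and hypoxia -0.27. With quality weights they were PDGF and FGF signals 0.11. Without day 14 replicates 2 and 4 they were ribosome biogenesis -0.34, BMP and GDF signals 0.36 and glycolysis and hypoxia -0.14. Over the fits without 1 library, medians were IGF system -0.29 to 0.0296, TGF-beta and activin signals -0.0371 to 0.15, matrix proteases and inhibitors -0.19 to 0.0593, other collagens -0.28 to -0.0745 and ribosome biogenesis -0.34 to -0.23. The muscle and erythroid lists each moved under a covariate made from their own mean, which fixes that shift in advance. Bpgm is itself a member of the erythroid list. Read numbers are unknown, which limits what low genes can show.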

Other observations

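Osteoclast genes, in a set of 13 chosen after the values were seen and therefore not tested as a set, had lower values at day 14 in many members. Groups did not overlap for 8, all with day 14 below, as did 6.11% of all genes tested, and 0 of the 13 passed in limma (smallest adjusted p = 0.0829). Tnfsf11, the ligand that drives osteoclast formation, had 60.1, 33.3, 42.3 and 48.1 at day 14, 451, 159, 224 and 237 at day 7, and was listed at 0 in the 3 controls (log2 fold change -2.42 ± 0.51; in the authors' deposited table -2.55 with adjusted p = 2.26e-09). Its receptor Tnfrsf11a had 761, 597, 498 and 554 at day 14 and 878, 1256, 1128 and 1210.5 at day 7. Acp5, the acid phosphatase used to stain osteoclasts, had 2044, 1492, 1488 and 1168 at day 14, 6132, 4024, 2633 and 5277 at day 7 and 897, 1703 and 1287 in the controls (-1.50 ± 0.33). The fusion protein Ocstamp had 31.4, 5.0, 18.8 and 26.5 at day 14 and 189, 200.5, 89.9 and 207 at day 7. Not all members followed: the protease Ctsk, which tendon fibroblasts also make, had 0.38 ± 0.33, Itgb3 -0.01 ± 0.37 and Atp6v0d2 -0.38 ± 0.75.

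Genes of the circadian clock, 17 chosen in the same way, also separated some libraries by day. Per2 had 2239, 1500.3, 1606 and 1824 at day 14, 905, 869.7, 1125 and 786 at day 7 and 2688, 2427 and 2011 in the controls (log2 fold change 0.95 ± 0.22, limma adjusted p = 0.127), and Tef 7869.8, 9669, 9776 and 10651 at day 14 and 2616, 4699, 5128 and 4976 at day 7 (1.16 ± 0.30, adjusted p = 0.175). Per3 and Cry2 did not overlap either (day 14 was above without overlap for 3.78% of all genes tested), and 0 of the 17 passed in limma. Dbp had 4374, 4907, 8261 and 848 at day 14, 985, 2996, 1233 and 1228 at day 7 and 7052, 7994 and 7764 in the controls. Arntl, whose transcript cycles in antiphase to Dbp, had 411, 303, 400.0 and 1629 at day 14, 2218, 846, 1292 and 1333 at day 7 and 431, 312 and 608 in the controls. For Arntl, day 14 replicates 1 to 3 lay within or just below the control range and replicate 4 within the day 7 range. For Dbp, day 14 replicates 1 to 3 lay above every day 7 library and replicate 4 below every one. The hour of collection is not given in the labels, and its part was not tested.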
